A study of Mus musculus with 4 samples.

Results

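The AP-1 and immediate early gene set comprised 9 genes of the 27998 that all 4 libraries were counted on: Fos, Fosb, Jun, Junb, Jund, Egr1, Ier2, Ier3 and Dusp1. They were chosen by gene symbol, each symbol stood on 1 gene identifier, and all 9 passed the filter on low counts in the main comparison, which tested 10899 genes. The cells were sorted from the livers of male wild-type C57BL/6 mice that were 8 weeks old and of matched weight when obtained, and that then ate a normal control diet (NCD) or a diet deficient in methionine and choline (MCD) for 6 weeks. The MCD diet is widely used to produce fatty, inflamed livers in mice. Each diet had 2 single-cell libraries (10x single cell 3' v3), numbered replicate 1 and 2. The labels do not say how many mice went into a library, so p-values measure only the spread between these libraries, which may be technical. The sort took live (7AAD-) CD45+ Ly6G- cells of intermediate CD11b, with F4/80 given as low in the series text and as high in the sample labels, which the files do not settle. The labels call the cells monocytes, but the libraries also held dendritic, endothelial, NK and other cells by their markers. No label names a batch, and diet and preparation cannot be told apart. The gene lists of the files differed: MCD replicate 1 listed 27998 genes and each of the other libraries 28692. Genes outside the shared set held at most 0.119% of a library's UMIs. The part of this difference in the counts of shared genes was not tested.

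AP-1 is a family of dimeric transcription factors. Fos proteins do not form stable pairs with each other and take Jun proteins as partners, while Jun proteins also pair among themselves, and the dimers bind short palindromic DNA motifs. Immediate early genes are transcribed within minutes of a stimulus without new protein synthesis, their transcripts are short-lived, and in macrophages they respond to growth factors, cytokines, microbial products and cell stress. Jund is usually present in resting cells, Junb can oppose Jun, Egr1 encodes a zinc finger factor induced through ERK and SRF, Ier2 and Ier3 encode early response proteins, and Dusp1 encodes a phosphatase that switches off p38 and JNK. The same genes are known to be induced while tissue is dissociated into single cells.

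The libraries held 2699 to 3475 barcodes, and 9609 cells were retained after filtering, 11 of which were set apart as hepatocyte-rich. Median UMIs (unique molecular identifiers, that is counted transcript molecules) per retained cell were 2173 and 2253.5 in the NCD libraries and 12038 and 12300 in the MCD libraries. The filter on mitochondrial UMIs (at most 10%) removed 37.2% and 33.6% of the barcodes in the NCD libraries, against 11.6% and 9.44% in the MCD libraries. Depth and this sign of cell quality thus moved with diet. With every library sum thinned to the smallest one, the same counts of members were called in the union (5 higher and 2 lower). Thinning a sum keeps the proportions of its genes, so it cannot address the difference in UMIs per cell. The parts of depth per cell and of cell quality in the calls were not tested. Pairs of libraries shared 1 to 8 barcodes of retained cells. Clusters were formed without the 9 genes and without 82 companion genes listed further on, and were named from marker genes. The main comparison used the union of 4 monocyte and macrophage classes (Ly6Chi-like monocytes, Ly6Clo-like monocytes, C1q macrophages and lipid-associated macrophage-like cells), with 684 and 705 NCD cells and 1161 and 1300 MCD cells. In this union Ptprc (CD45) stood at 973 to 1315 CPM (a gene's UMIs as a share of all UMIs, on the usual CPM scale), Itgam (CD11b) at 244 to 290 CPM, Adgre1 (F4/80) at 118 to 164 CPM and Ly6g at 0 in every library. The make-up of the union differed by diet: lipid-associated macrophage-like cells numbered 4 and 8 in NCD against 310 and 239 in MCD, and C1q macrophages 67 and 48 against 2 and 1. In the union the 11 endothelial markers summed to 144 and 164 CPM in NCD and to 31.4 and 72.3 CPM in MCD, with 8 of 11 called lower. The 11 neutrophil markers summed to 127 to 288 CPM in NCD and 164 to 221 CPM in MCD, with Ly6g at 0. The 10 hepatocyte markers summed to 89.3 and 91.2 CPM in NCD and to 226 and 241 CPM in MCD. The 7 erythroid markers summed to 4.47 and 105 CPM in NCD and to 117 and 597 CPM in MCD. The part of these cells' RNA in the results was not tested.

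The promoters of 5 members on which the diet results below turn are shown. They are the RefSeq windows upstream of the transcription start in GRCm38.p6, which is the mm10 build of the files, cut before any annotated exon and written 5′ to 3′ on the gene's strand. RefSeq windows were matched for 7 of the 9 members. Capitals mark matches, on either strand, to TGACGT, to the cyclic AMP response octamer TGACGTCA, to the looser octamer TGANNTCA, to the AP-1 heptamer TGANTCA, to TATAAA, or to the CArG box bound by SRF. The first octamer contains TGACGT and is a case of the looser one.
Fos, chr12:85473640-85473889, + strand, 250 bases: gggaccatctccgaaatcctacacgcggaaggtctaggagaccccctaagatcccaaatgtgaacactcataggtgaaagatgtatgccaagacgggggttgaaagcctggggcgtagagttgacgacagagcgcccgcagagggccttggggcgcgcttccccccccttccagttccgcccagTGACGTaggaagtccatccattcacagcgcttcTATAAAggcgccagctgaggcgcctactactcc
Dusp1, chr17:26508520-26508722, - strand, 203 bases: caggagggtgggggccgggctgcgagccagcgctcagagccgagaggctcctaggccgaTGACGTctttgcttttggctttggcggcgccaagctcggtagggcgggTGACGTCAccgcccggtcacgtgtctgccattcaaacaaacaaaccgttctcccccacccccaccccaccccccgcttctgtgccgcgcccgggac
Fosb, chr7:19310052-19310295, - strand, 244 bases: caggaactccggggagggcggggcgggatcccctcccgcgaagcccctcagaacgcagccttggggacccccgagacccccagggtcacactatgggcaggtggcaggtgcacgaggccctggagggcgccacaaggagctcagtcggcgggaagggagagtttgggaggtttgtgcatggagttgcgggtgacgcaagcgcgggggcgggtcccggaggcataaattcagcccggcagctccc
Junb, chr8:84978749-84978998, - strand, 250 bases: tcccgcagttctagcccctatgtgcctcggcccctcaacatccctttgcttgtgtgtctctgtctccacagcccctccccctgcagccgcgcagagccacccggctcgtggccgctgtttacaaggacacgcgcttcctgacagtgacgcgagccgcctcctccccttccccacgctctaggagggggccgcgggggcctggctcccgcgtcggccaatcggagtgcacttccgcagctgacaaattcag
Ier3, chr17:35821463-35821683, + strand, 221 bases: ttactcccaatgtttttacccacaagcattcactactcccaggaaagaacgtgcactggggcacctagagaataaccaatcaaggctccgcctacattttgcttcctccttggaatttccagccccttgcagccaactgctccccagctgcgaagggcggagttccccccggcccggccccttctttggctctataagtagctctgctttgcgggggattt
The Fos window held TGACGT 66 bases before its end and TATAAA 33 bases before its end. The Dusp1 window held TGACGT 144 bases and TGACGTCA 96 bases before its end. No match to these letters was found in the Fosb, Junb and Ier3 windows, which says nothing of the factors that act there. Of the matched windows not shown, that of Jun held TGACATCA 45 bases and that of Jund TGAAATCA 61 bases before its end, both cases of TGANNTCA. The Jund window ends 1210 bases before the start of its gene model below. No relation between these letters and the diet differences was tested. Among all 32851 RefSeq promoters, the 250 bases upstream held TGACGT in 6.47%, TGACGTCA in 1.55%, TGANNTCA in 11.9%, TGANTCA in 6.75%, TATAAA in 12.4% and the CArG box in 1.47%. One longer annotated Dusp1 transcript starts farther upstream, so the Dusp1 window lies inside that gene model's span. Positions of the gene models below are those of GENCODE M21 on the same build. Jun, Junb, Jund and Dusp1 overlap other annotated genes (Junos, Prdx2, Gm11175, and a group of 4 that includes Ergic1), and no source used here states the strand setting of the authors' counting.

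In the union, 5 of the 9 members were higher in MCD (Fosb, Junb, Jund, Ier2 and Ier3), 2 were lower (Fos and Dusp1), and Jun and Egr1 did not pass the test. Of all tested genes, 38.2% were called, 20.2% higher and 18% lower, so calls were common in this comparison. Calls here and below are edgeR quasi-likelihood F tests with a Benjamini-Hochberg adjusted p under 0.05, and levels in the diet comparisons are CPM after TMM scaling, which sets the bulk of genes equal between libraries. Log2 fold changes are MCD over NCD, each with its standard error (SE).

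Of the Fos family, Fos (chr12:85473890-85477273, + strand) stood at 4916 and 4381 CPM in the NCD libraries and at 3320 and 2933 CPM in the MCD libraries. Both MCD libraries were below both NCD libraries, and the log2 fold change was -0.57 (SE 0.10, edgeR adjusted p = 0.00221), a 1.49-fold fall. Fosb (chr7:19302696-19310051, - strand), which encodes another partner of Jun proteins, moved the other way. Its level was 252 and 182 CPM in NCD and 353 and 388 CPM in MCD, without overlap (log2 fold change 0.77, SE 0.14, edgeR adjusted p = 0.00240). On this scale, the 2 Fos genes of the set thus differed by diet in opposite directions in the same sums of cells.

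Among the Jun genes, Jund (chr8:70698949-70700616, + strand) stood at 780 and 695 CPM in NCD and at 1411 and 1716 CPM in MCD, a 2.12-fold rise (log2 fold change 1.09, SE 0.12, edgeR adjusted p = 1.21e-04). Junb (chr8:84974484-84978718, - strand) stood at 1586 and 1426 CPM in NCD and 2768 and 2687 CPM in MCD, a 1.81-fold rise (log2 fold change 0.86, SE 0.09, edgeR adjusted p = 1.27e-04). The diets did not overlap for either gene. Jun (chr4:95049034-95052222, - strand), the founding member of the family, stood at 1286 and 1168 CPM in NCD and 1259 and 1663 CPM in MCD, and MCD replicate 1 lay inside the NCD range (log2 fold change 0.25, SE 0.13, edgeR adjusted p = 0.156).

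Egr1, on chromosome 18, was spread within both diets, with 229 and 119 CPM in NCD and 155 and 372 CPM in MCD. The diets overlapped (log2 fold change 0.60, SE 0.39, edgeR adjusted p = 0.249), and the value without MCD replicate 2 was -0.21, while without MCD replicate 1 it was 1.06. For Egr1, therefore, 1 MCD library decided the sign. Jun was at -0.012 without MCD replicate 2 and 0.39, past the threshold, without MCD replicate 1.

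The early response genes were both higher in MCD. Ier3 (chr17:35821684-35822923, + strand), whose product acts in cell survival, rose 6.53-fold, from 71.6 and 54.6 CPM to 368 and 453 CPM (log2 fold change 2.71, SE 0.16, edgeR adjusted p = 5.05e-06). This was the largest difference among the 9 genes in the union. Ier2 (chr8:84661331-84662852, - strand) stood at 362 and 385 CPM in NCD and at 531 and 696 CPM in MCD (log2 fold change 0.72, SE 0.13, edgeR adjusted p = 0.00255). Dusp1 (chr17:26505590-26562128, - strand), the phosphatase gene, stood at 4099 and 4068 CPM in NCD and 2479 and 2363 CPM in MCD, a 1.69-fold fall (log2 fold change -0.75, SE 0.09, edgeR adjusted p = 1.79e-04). For Ier3, Ier2 and Dusp1 the diets did not overlap.

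**Figure D1:**
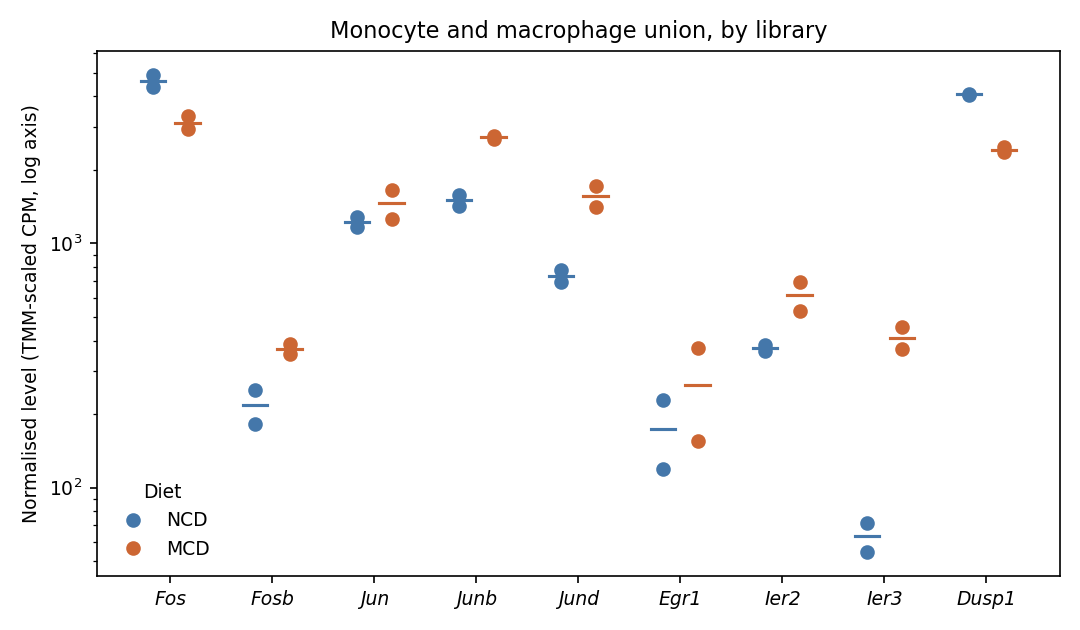
TMM-scaled CPM on a log axis (y) of the 9 genes (x) in the union of monocyte and macrophage classes. Each point is a library and each bar the mean of a diet's 2 libraries. Fos and Dusp1 lie lower in both MCD libraries, Fosb, Junb, Jund, Ier2 and Ier3 lie higher, and the diets overlap for Jun and Egr1.

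The scale matters for the genes near the middle. TMM scaling set the median log2 fold change of all tested genes in the union to 0.03, and plain library totals put it at 0.40. On library totals Fos was at -0.19 (edgeR adjusted p = 0.0989) and Jun at 0.63 (edgeR adjusted p = 0.00225), while the other calls kept their direction and their side of the threshold. The fall of Fos is thus relative to the bulk of genes.

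Ratios between 2 genes of the same cells do not depend on the scaling, although they compare UMIs and not molecules of protein. They do carry the trend with GC content of the transcript end given further on. Fos had 32.6% GC there, Junb 53.6% and Jund 56.2%. With that trend removed in the union, the log2 fold change of Fos went from -0.57 to -0.24. That of Junb went from 0.86 to 0.29 and that of Jund from 1.09 to 0.37. In the union, UMIs of Jund per UMI of Fos were 0.159 in both NCD libraries and 0.425 and 0.585 in the MCD libraries. Junb per Fos was 0.323 and 0.326 in NCD and 0.834 and 0.916 in MCD, and Fosb per Fos was 0.0513 and 0.0415 in NCD and 0.106 and 0.132 in MCD. Over the 9 classes and clusters with enough cells in every library, Jund per Fos and Fosb per Fos were higher in both MCD libraries than in both NCD libraries in 9 of 9. Junb per Fos was so in 8 of 9 and overlapped in the remaining one, and Jund per Jun was so in 8 of 9. Dusp1 per Fos had no common direction, with MCD higher in 2, NCD higher in 3 and overlap in 4. The 9 classes and clusters come from the same 4 libraries and do not replicate each other. How often other gene pairs separate the diets in this way was not counted. In cluster 9 the separation of Fosb per Fos was slight, at most 0.0753 in NCD and at least 0.0757 in MCD.

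The diet difference was then fitted within each class with at least 20 cells per library, which left 6 named classes and 3 unnamed clusters. In the named classes most cells of the 2 diets came from different clusters, which were, for NCD and MCD, clusters 2 and 0 for Ly6Chi-like monocytes, 10 and 8 for Ly6Clo-like monocytes, 6 and 5 for cDC2-like cells (conventional type 2 dendritic cells), 14 and 24 for NK-like cells, 22 and 12 for migratory dendritic-like cells, and 4 against 11 and 17 for endothelial cells. In cDC2-like cells 7 members were higher and 2 lower, so all 9 were called, where 32% of all genes were (16.1% higher and 15.8% lower). Of these, Egr1 passed with the diets overlapping, at 308 and 244 CPM in NCD and 304 and 442 CPM in MCD (edgeR adjusted p = 0.0448). DESeq2 called 6 higher and 2 lower in this class. In Ly6Chi-like monocytes 5 were higher and 2 lower, where 31.8% of genes were called (16% and 15.8%). Ly6Clo-like monocytes had 5 higher and 1 lower, against 22.1% of genes (11.3% and 10.8%). Endothelial cells had 3 higher and 2 lower, against 30.6% of genes (16.8% and 13.8%). NK-like cells had 3 higher and 2 lower of 8 tested, against 21.5% of genes (8.86% and 12.6%), and migratory dendritic-like cells had 2 and 2, against 9.51% (5.47% and 4.04%).

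Of the unnamed clusters, cluster 9, led by Cxcl9 and Cxcl10, had 4 members higher and 2 lower, against 23.4% of genes (11.4% and 12%). Cluster 13, led by neutrophil and proliferation genes such as S100a8 and Camp, had 4 and 1, against 14.1% (6.03% and 8.02%). In cluster 1, which had few UMIs per cell and was led by Retnlg, G0s2 and Ccr3, edgeR called 0 of the 9 members and 0.0829% of genes (0.0622% and 0.0207%). There 5 members had an unadjusted p under 0.05 (2 higher and 3 lower), and DESeq2 called 1.

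Dusp1 was lower in 8 of 9 of these classes and clusters, with log2 fold changes from -0.94 to -0.63 over all 9, and Fos was lower in 6, with values from -1.33 to -0.27. The deepest fall of Fos was in NK-like cells, from 1722 and 2007 CPM to 963 and 495 CPM (log2 fold change -1.33, SE 0.25, edgeR adjusted p = 0.00208). In Ly6Clo-like monocytes, the patrolling type, Fos stood at 4399 and 3592 CPM in NCD and 3515 and 3093 CPM in MCD, without overlap, but the difference did not pass the test (edgeR adjusted p = 0.105). On library totals Fos was called lower in 3 of 9 and was above 0 in 3 of 9, among them Ly6Clo-like monocytes at 0.045, and Dusp1 was called lower in 4 of 9 with all 9 values below 0.

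Jund was higher in 7 of 9 and Junb and Ier2 in 6 of 9, while Fosb was higher in 5 of 9 and Ier3 in 5 of 8. The trend with GC content of the transcript end was not removed within classes. Jund rose most in cDC2-like cells, from 510 and 539 CPM to 1392 and 1611 CPM (log2 fold change 1.52, SE 0.12, edgeR adjusted p = 4.74e-10). Ier3 had its largest fold change in Ly6Clo-like monocytes, from 31.2 and 30.9 CPM to 276 and 313 CPM, 9.48-fold (log2 fold change 3.24, SE 0.21, edgeR adjusted p = 6.15e-06). These NCD levels rested on 12 and 12 UMIs. The difference from the log2 fold change in Ly6Chi-like monocytes did not pass the test (0.61, SE 0.29, edgeR adjusted p = 0.368). In migratory dendritic-like cells Ier3 stood at 120 and 20.6 CPM in NCD and 56.3 and 105 CPM in MCD, and the diets overlapped. Jun and Egr1 were each called higher in 2 of 9. Egr1 was called in endothelial cells, where it stood at 261 and 189 CPM in NCD and 363 and 496 CPM in MCD (log2 fold change 0.95, SE 0.19, edgeR adjusted p = 0.00316). The endothelial class also held Ptprc at 616 to 1168 CPM and Lyz2, a myeloid gene, at 3043 to 7727 CPM, and no doublet caller was applied.

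**Figure D2:**
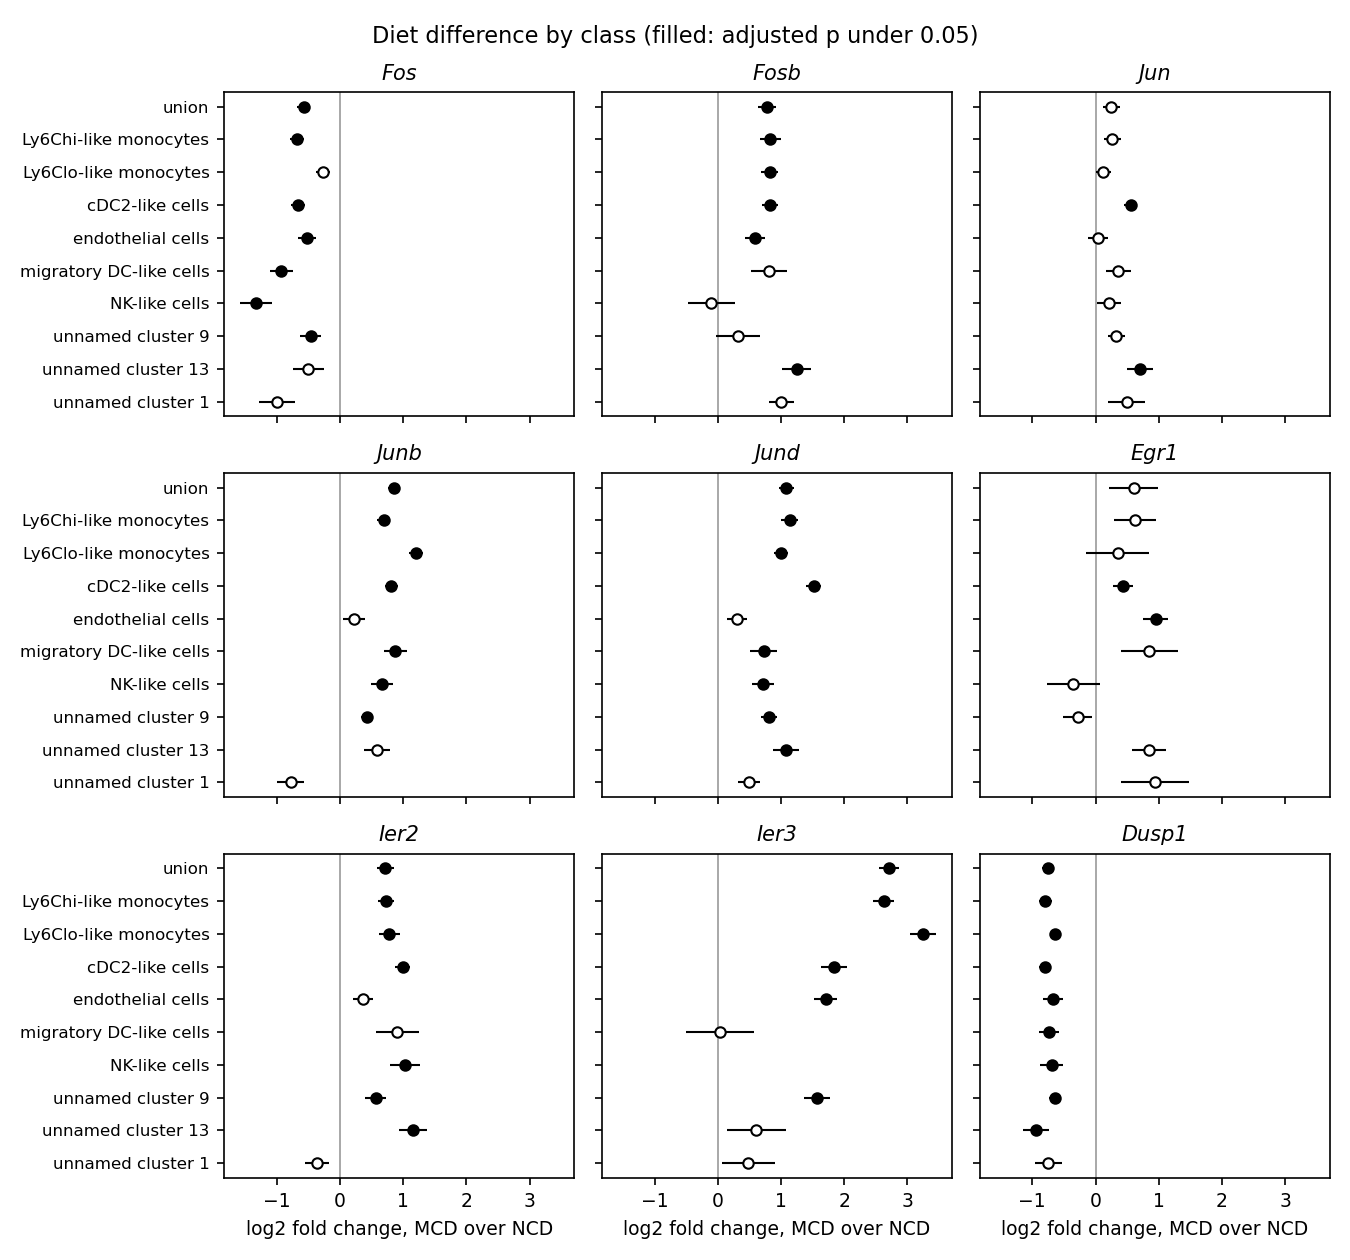
Log2 fold change, MCD over NCD (x), in the union and in 9 classes and clusters (y), 1 panel per gene, with bars for the SE of the fit. Filled points passed an adjusted p under 0.05, and Ier3 was not tested in NK-like cells. Fos and Dusp1 points all lie left of 0, and Jun, Jund and Ier3 points all lie right of it. Jun was called in only 2 of the 9 classes and clusters.

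In the sum of all retained cells, 6 members were higher and 0 were lower at this threshold, where 49% of genes were called by edgeR (26.1% higher and 22.9% lower). Fos stood at 3263 and 2850 CPM in NCD and 2987 and 2460 CPM in MCD, with overlap (log2 fold change -0.17, edgeR adjusted p = 0.402). Dusp1 did not overlap, with 3533 and 3054 CPM in NCD and 2775 and 2316 CPM in MCD, but its difference did not pass the test (log2 fold change -0.37, edgeR adjusted p = 0.0848). At an unadjusted p under 0.05, edgeR had 1 member lower in this sum, and DESeq2 called 1 lower after adjustment. Sums over all cells also hold the change in class make-up, and cluster 1 went from 114 and 41 cells in NCD to 737 and 490 in MCD. Without cluster 1 the values were -0.14 for Fos and -0.39 for Dusp1, neither past the threshold.

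Whether the diet difference itself differed between classes was tested with a class by diet term. Against Ly6Chi-like monocytes, Ly6Clo-like monocytes had a larger rise of Junb (difference of log2 fold changes 0.50, SE 0.07, edgeR adjusted p = 4.16e-05) and a smaller fall of Fos (0.39, SE 0.06, edgeR adjusted p = 1.53e-04), and these were the 2 members called, both in the positive direction, where 3.81% of genes were called (2.98% positive and 0.835% negative). Both terms kept their direction and passed on library totals, at 0.33 for Junb and 0.22 for Fos. Endothelial cells had smaller rises than Ly6Chi-like monocytes of Jund (-0.80, SE 0.12, edgeR adjusted p = 4.10e-09), Junb (-0.41, SE 0.11, edgeR adjusted p = 0.00240) and Ier3 (-0.90, SE 0.21, edgeR adjusted p = 4.16e-04), and 3 members were thus called lower, where 8.93% of genes were called (7.09% positive and 1.84% negative). In cDC2-like cells 0 of 9 terms passed with edgeR, where 0.666% of genes did (0.486% positive and 0.18% negative). The nearest was Jund at 0.40 (SE 0.10, edgeR adjusted p = 0.0590), 4 of the 9 had an unadjusted p under 0.05 (Jun, Jund, Ier2 and Ier3), and on library totals Jun and Jund passed. The comparisons with endothelial and cDC2-like cells were added after the data had been seen. The planned term for C1q macrophages could not be fitted, since the MCD libraries held 2 and 1 such cells.

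Levels across classes are given as plain CPM of summed UMIs (mean ± SD, n = 2 libraries) and describe where in the sorted cells each gene was high within a diet. In NCD, Fos was highest in Ly6Chi-like monocytes at 4418 ± 89.8 CPM. Cluster 18 followed at 4153 ± 177 CPM, then cluster 1 at 3620 ± 1028 CPM, Ly6Clo-like monocytes at 3546 ± 433 CPM and C1q macrophages at 3219 ± 256 CPM. Cluster 1, Ly6Clo-like monocytes and C1q macrophages did not differ beyond their spread. Endothelial cells at 2724 ± 85.5 CPM and cluster 9 at 2419 ± 49.96 CPM were lower, and NK-like cells (1338 ± 166 CPM) and migratory dendritic-like cells (1145 ± 243 CPM) were lowest and overlapped. In MCD Ly6Chi-like monocytes were again highest (3936 ± 539 CPM), now followed by Ly6Clo-like monocytes (3657 ± 393 CPM), and these 2 classes overlapped. Cluster 1 stood at 1843 ± 760 CPM in MCD. The lowest were again NK-like (704 ± 317 CPM) and migratory dendritic-like cells (651 ± 25.3 CPM).

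The other members had another order. In NCD, basophil-like cells (granulocytes with Hdc, Cyp11a1 and Gata2 among their leading genes, 34 and 73 cells) had the highest Egr1, at 4540 and 4846 CPM, while no other class had a mean above 308 CPM. The same cells had the highest Jun (4744 ± 35.4 CPM), Ier3 (2530 ± 313 CPM), Ier2 (2185 ± 53.3 CPM) and Fosb (1016 ± 303 CPM) in NCD. Their MCD counterparts were 3 and 6 cells, too few for a level. After thinning each cell to 1000 UMIs, 95.8% (23 of 24) and 90% (54 of 60) of these cells held an Egr1 UMI, against 97.1% and 94.5% before thinning.

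Cluster 1 had the highest Junb, Dusp1 and Jund in both diets. Its Junb was 20903 ± 902 CPM in NCD and 11984 ± 3477 CPM in MCD, and its Dusp1 was 17362 ± 139 CPM and 10191 ± 2923 CPM. Jund stood at 4825 ± 470 CPM there in NCD and at 6656 ± 322 CPM in MCD. The cells of this cluster had a median of 757 to 1314 UMIs, and Jun was low in them, at 296 ± 152 CPM in NCD. Within the monocytes, Ier3 in NCD was higher in Ly6Chi-like cells (74.8 and 57.1 CPM) than in Ly6Clo-like cells (27.3 and 27.8 CPM). In MCD, Ier3 was highest in cluster 9 (756 ± 162 CPM) and in cluster 3 (732 ± 17.6 CPM), which did not differ beyond their spread. Cluster 3 was found only in the MCD libraries, with 395 and 400 cells, and had Sod2, Saa3, Cxcl2 and Clec4e among its leading genes.

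**Figure D3:**
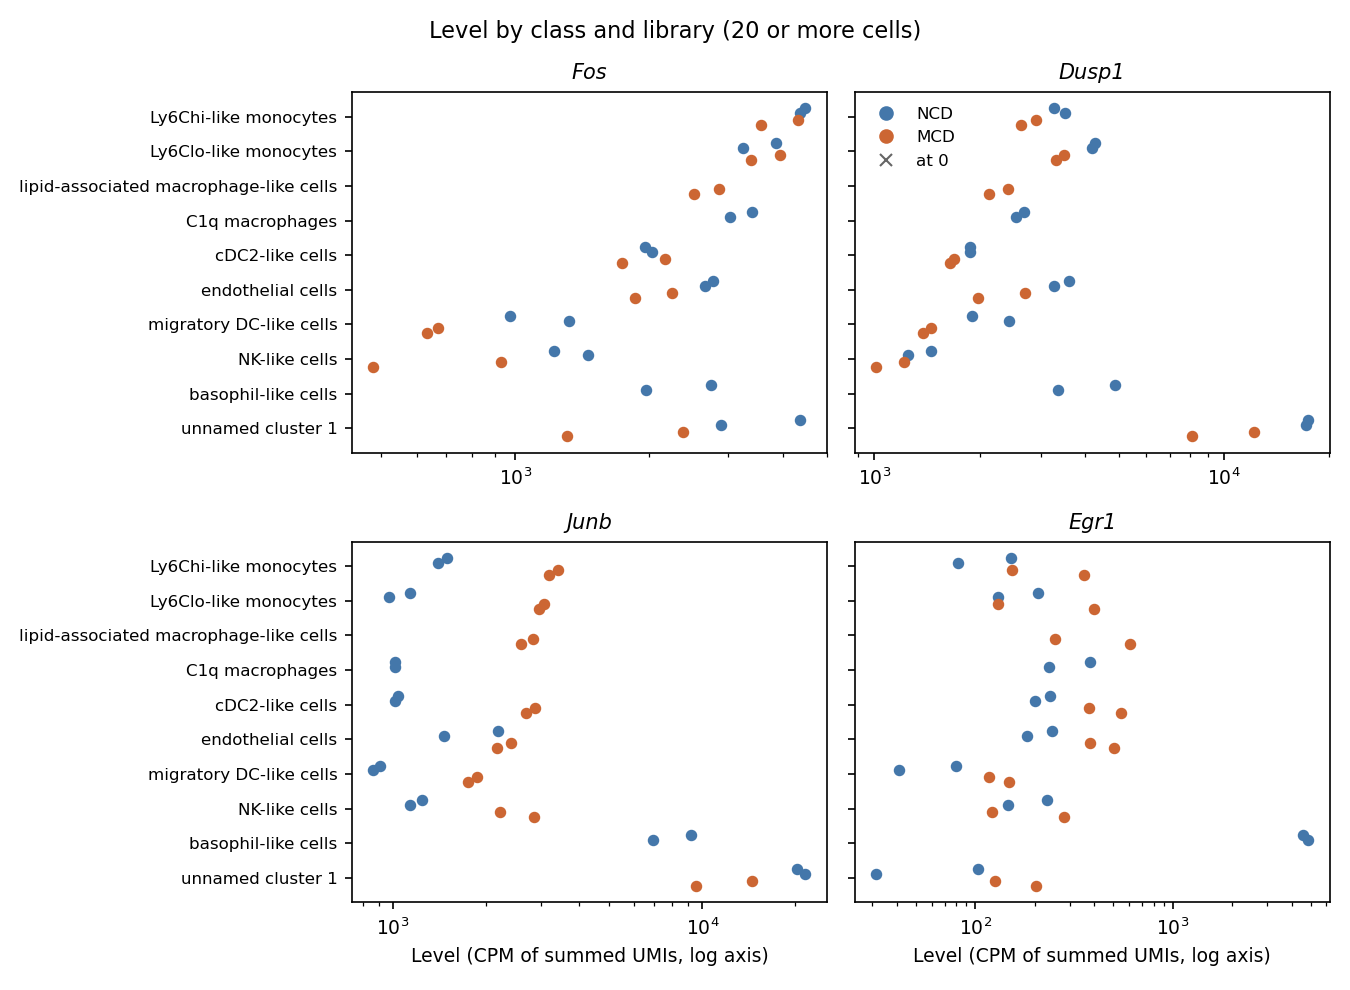
CPM of summed UMIs on a log axis (x) for Fos, Dusp1, Junb and Egr1 in 10 classes or clusters (y). Each point is a library with at least 20 cells in that class. Egr1 is highest in basophil-like cells and Junb and Dusp1 in cluster 1, while Fos is lowest in NK-like and migratory dendritic-like cells.

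The share of the 9 genes together was also taken cell by cell. Each cell was thinned to 1000 UMIs so that depth was equal, which left out 9 and 5 NCD and 3 and 5 MCD cells of the union. The median cell then held 1.1% and 1% of its UMIs in the 9 genes in the NCD libraries and 1.4% in both MCD libraries, and 0.296% to 1.21% of cells held none. These shares are on the scale of library totals, where the median log2 fold change of all tested genes in the union was 0.40. A higher share in MCD thus does not by itself set the 9 genes apart from other genes. The share that free RNA gives was not measured for the 9 genes together. Other cells also held these UMIs, with medians of 1.1% and 0.65% in MCD T cells, and of 0.4% in both NCD and 0.7% and 0.8% in the MCD libraries in NK-like cells. The coefficient of variation between cells of the union was 0.576 and 0.592 in NCD and 0.560 and 0.517 in MCD, against 0.257 to 0.30 from counting alone, so cells of one library differed beyond the counting error. The medians of cDC2-like cells were 0.6% in both NCD libraries and 1% and 1.1% in the MCD libraries. Those of endothelial cells were 0.95% and 0.8% in NCD and 1% and 0.7% in MCD and overlapped. With 2 libraries against 2 an exact two-sided permutation test cannot give a p under 0.333, so none is given for these shares.

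**Figure D4:**
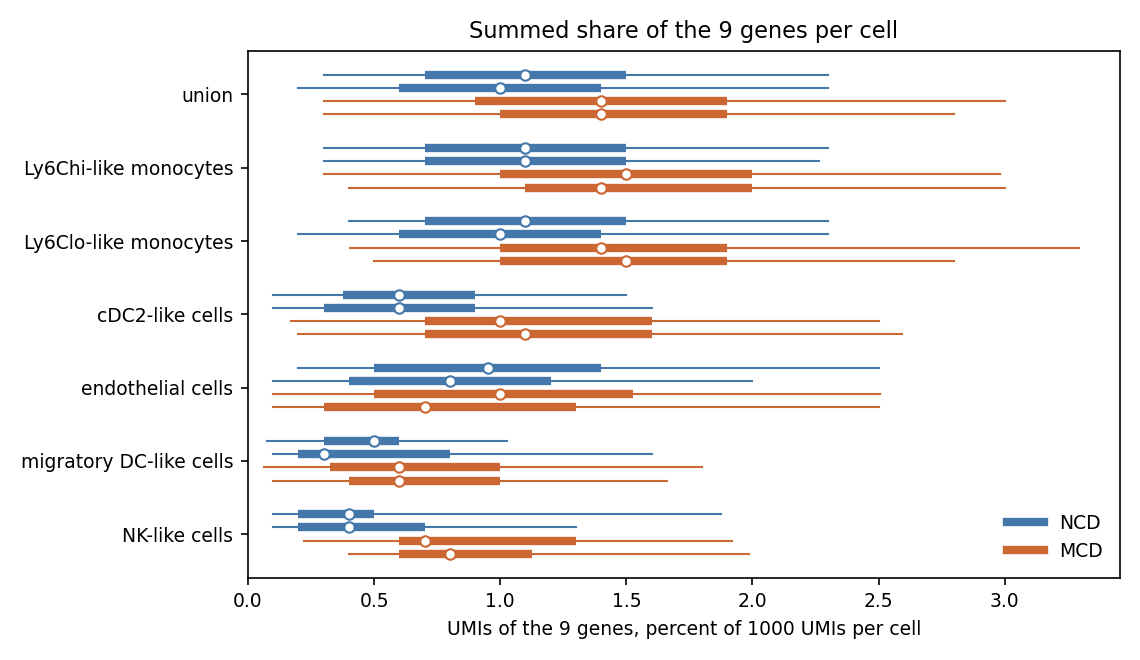
UMIs of the 9 genes as a percentage of 1000 UMIs per cell (x) by class (y), with 1 bar per library. The thin line spans the 5th to 95th percentile of cells, the thick line the middle 50%, and the circle is the median. The MCD medians exceed the NCD medians in the union and in every class shown except endothelial cells, where they overlap. Shares are on the scale of library totals, without TMM scaling.

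After the same thinning, cells of the union with at least 1 Fos UMI made up 92.6% and 88.4% in NCD and 85.8% and 84.6% in MCD (97.5%, 94.0%, 98.0% and 98.8% before thinning). The share with a Junb UMI was 67.0% and 60.6% in NCD and 87.9% and 87.3% in MCD (83.8%, 77.2%, 99.2% and 99.6% before). An Ier3 UMI was found in 5.04% (34 of 675 cells, exact Clopper-Pearson 95% interval 3.51 to 6.97%) and 4.14% (29 of 700, 2.79 to 5.90%) in NCD. In MCD it was found in 24.1% (279 of 1158, 21.7 to 26.7%) and 28.0% (362 of 1295, 25.5 to 30.5%), and before thinning the 4 shares were 9.94%, 9.36%, 66.4% and 72.5%. The intervals cover counting error only. For comparison, Ier3 was found in 0 of 25 and 1 of 20 MCD T cells (5%), with median depths of 6994 and 8164 UMIs before thinning, against 13591 and 12851 UMIs in the MCD union. It was found in 0 of 29 and 0 of 38 MCD cDC1-like cells (median depths 22929 and 22976 UMIs), and in 2 of 29 (6.90%) and 4 of 30 (13.3%) MCD B cells (median depths 4015 and 4130.5 UMIs). Without thinning these shares were 12% and 30% in T cells, 27.6% and 36.8% in cDC1-like cells and 16.1% and 15.6% in B cells. T cells and cDC1-like cells were among the classes with the lowest Ier3 levels, and B cells stood higher, at 315 and 132 CPM. None of these classes is known here to lack Ier3, so the share that free RNA gives was not measured.

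Within cells, pairs of members were only weakly correlated at equal depth. Over 16 sets of 1 class and 1 library, the highest median Pearson r was 0.27, for Fos with Dusp1 (range 0.05 to 0.46), followed by Junb with Dusp1 at 0.23 and Fos with Jun at 0.23. The median for Fosb with Ier3 was -0.01. In counts this sparse such values are a description and no finding. Across 54 sums of 1 class and 1 library, which share libraries and depth, the levels of Jund and Junb were alike (r = 0.89 on log2 CPM plus 10), as were Jund and Ier2 (r = 0.85) and Jun and Egr1 (r = 0.79). Fos stood apart from Fosb (r = -0.01) and Jund (r = -0.07), and among the members was most like Dusp1 (r = 0.58). Of 5513 genes with a mean of at least 20 CPM, those most like Fos included Alox5ap (r = 0.85), Lyn, Xbp1 and Nrros (r = 0.79 to 0.76). Those most like Ier3 were Lilrb4a (r = 0.81), Osm (r = 0.80), Nlrp3, Lilr4b and H3f3b (r = 0.76 to 0.75).

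The diet difference of all genes moved with the GC content of the transcript end, the part read by this assay. The median log2 fold change in the union rose from -0.43 in genes with 24 to 28% GC in their last 500 bases to 0.86 in genes with 56 to 60%, and was 0.76 in the 100 genes with 60 to 64%. Among the members, Fos had the lowest GC (32.6%), with Dusp1 at 38.2% and Egr1 at 38.6%, and Jund (56.2%), Ier2 (55.2%) and Junb (53.6%) the highest. With this trend removed, Fos was at -0.24 (edgeR adjusted p = 0.110) and Ier2 at 0.05 (edgeR adjusted p = 0.804), so both calls were lost. Dusp1 was at -0.56 (edgeR adjusted p = 0.00124), Ier3 at 2.45 (1.31e-05) and Fosb at 0.61 (0.0105), and Junb (0.29, 0.0357) and Jund (0.37, 0.0409) kept their calls at smaller values. The trend was removed in the union only. Its part in calls within classes and in class by diet terms was not tested.

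**Figure D5:**
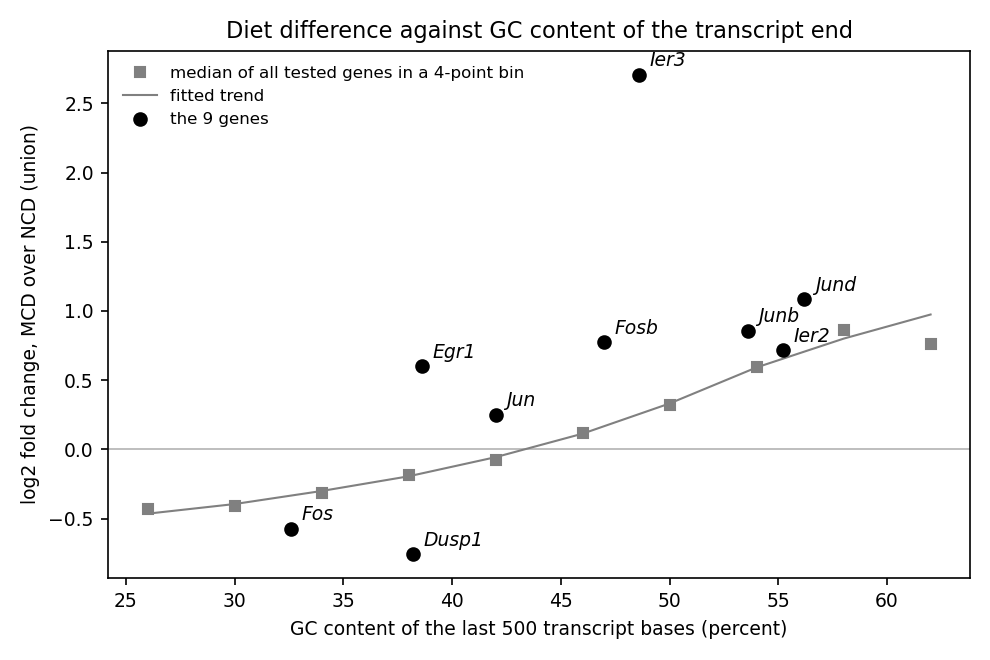
Log2 fold change in the union (y) against GC content of the last 500 transcript bases (x). Grey squares are medians of all tested genes in bins 4 percentage points wide, the line is the fitted trend and black points are the 9 genes. Ier3, Egr1 and Fosb lie above the trend, Dusp1 below it, and Ier2 close to it.

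Other genes of the pathway were read from 6 lists, with a median log2 fold change of 0.03 over all tested genes as the comparison. Genes counted as rising or falling are those called. Of all tested genes in the union, 20.2% were called higher and 18% lower, the shares to set beside each union count below. These lists were drawn up with earlier results of these data known, and no list was tested. Of 10 AP-1 partners, 5 rose and 0 fell, with a median of 0.61. Maff, a small Maf protein, stood at 14.9 and 11.9 CPM in NCD and 41.0 and 68.1 CPM in MCD (log2 fold change 2.03, SE 0.34, edgeR adjusted p = 0.00149). Batf, which pairs with Jun proteins, was at 1.46 (SE 0.25), and Atf3, a stress-induced factor, at 1.44 (SE 0.09), from 549 and 515 CPM to 1460 and 1433 CPM. Mafg was at 0.74 (SE 0.13) and was not called with the GC trend removed.

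Of 17 other immediate early genes 14 were tested, and 7 rose and 3 fell (median 0.22). Gadd45b, a stress response gene that acts on MAP kinase signals, rose from 36.5 and 20.99 CPM to 161 and 247 CPM (log2 fold change 2.84, SE 0.27, edgeR adjusted p = 6.78e-05), and Nr4a3, an orphan nuclear receptor, from 4.47 and 7.00 CPM to 24.1 and 33.8 CPM (2.32, SE 0.34). Ppp1r15a, which reverses translation arrest, was at 0.99 and Egr2 at 0.93, and Egr2 lost its call in 6 of 18 alternative settings and changed sign in 2. Klf4, a monocyte transcription factor, Zfp36, whose product destabilises messenger RNA, and Rhob were the 3 that fell, named here after their values were seen, at -0.74, -0.50 and -0.38.

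Of 12 further MAP kinase phosphatases and feedback inhibitors, 6 fell and 1 rose (median -0.16). Dusp6, the ERK phosphatase gene, fell from 166 and 178 CPM to 84.3 and 78.1 CPM (log2 fold change -1.08, SE 0.11, edgeR adjusted p = 7.33e-05), and Dusp16, which acts on JNK, from 139 and 129 CPM to 43.5 and 56.3 CPM (-1.43, SE 0.15). Spry2 stood at 1.49 and 4.198 CPM in NCD and 0.434 and 0.515 CPM in MCD (-2.57, SE 0.69), and its call was lost without NCD replicate 2. Spred2 was at -0.98 and lost its call in 8 of 18 settings. The 1 gene that rose, named after its value was seen, was Dusp2 at 0.65 (SE 0.17). Within single classes of the union, 1 of 10 tested genes of this list fell and 1 rose in Ly6Chi-like monocytes, where 15.8% of all genes fell and 16% rose. In Ly6Clo-like monocytes 3 of 9 fell and 1 rose, against 10.8% and 11.3% of all genes. In cDC2-like cells, outside the union, 1 of 9 fell and 2 rose, against 15.8% and 16.1%. The make-up of the union differed by diet, and its part in the union's count was not tested.

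Of 16 upstream kinases and factors, 4 rose and 3 fell (median 0.00), near the shares of all tested genes. The 4 with the largest differences were Map2k2 (1.41, SE 0.14), Srf (1.06, SE 0.24), Mapk3 (1.02, SE 0.13) and Mkl1 (0.84, SE 0.19). Map2k2 kept its call with the GC trend removed, and Srf, Mapk3 and Mkl1 did not. Of 16 AP-1 target genes of macrophages 15 were tested, and 6 rose and 1 fell (median 0.38). Il1b, which encodes the cytokine interleukin-1 beta, rose from 311 and 196 CPM to 1306 and 1250 CPM (log2 fold change 2.34, SE 0.17, edgeR adjusted p = 1.59e-05). Cxcl2, a neutrophil chemokine, was at 1.73 (SE 0.10) and Vegfa at 1.68 (SE 0.15). Mmp13, a collagenase, was the 1 that fell, from 4.47 and 14.0 CPM to 0.271 and 0.360 CPM (-4.83, SE 0.62). Of 11 heat shock genes, 4 rose and 2 fell (median 0.57), the latter near the share of all tested genes. Hspa1a, whose counts are uncertain because Hspa1b is a near-identical copy, stood at 765 and 807 CPM in NCD and 1692 and 3109 CPM in MCD (1.61, SE 0.23), and Dnajb1 (1.31, SE 0.22) and Hspa8 (1.12, SE 0.11) rose, while the mitochondrial chaperonin gene Hspe1 fell (-1.23, SE 0.14). Heat shock genes mark cell stress, including that of cell preparation, and they moved with diet beside the members. Their part in the members' differences was not tested.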

How the data were processed

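The authors deposited matrices of UMI counts, with a gene and a cell barcode for each count, produced by Cell Ranger (version 3.0.2 per the file headers) against mm10 per the submitters' processing notes. The sources used here do not state the settings for calling cells. Cells needed 200 detected genes and no more than 10% of UMIs from mitochondrial genes. No doublet caller was applied, so doublets remain. Cells were clustered on 2000 variable genes, without the 9 genes and the companion lists, using 30 principal components and 15 neighbours with Leiden at resolution 1 (scanpy 1.11.5, leidenalg 0.10.2, Python 3.11.15). A cluster was named where at least 3 markers of 1 list stood among its 50 leading genes, with at least 1 among its 10 leading genes. No other list could tie with it or hold more of the 10 leading genes. Leading genes were ranked within each diet that had at least 20 cells of the cluster. Only clusters 1, 4, 9 and 13 were ranked in both diets, and the others were named from 1 diet. Where both were ranked, the names had to be the same or both be monocyte or macrophage classes.

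UMIs were summed per library and class, and diets compared with the quasi-likelihood F test of edgeR 4.0.16 in R 4.3.3, using TMM factors and filterByExpr, and p-values were Benjamini-Hochberg adjusted over all tested genes at 0.05. Library totals were 7428431 to 37772284 counts. Named genes were the 9 members, up to 4 called genes per companion list with the largest log2 fold change in the union, and the 5 genes most like Fos and Ier3, of which 1 is not reported here. Alternatives were DESeq2 1.42.0, library totals, no filter, a replicate block, leaving out each library, thinned sums, mitochondrial limit 20%, Leiden resolution 0.5, equal class weight, no lipid-associated class and a GC trend. Alternatives chosen after seeing the data were no cells above 3 times the median UMIs, listed genes kept for clustering, unnamed clusters added, no cells under 1000 UMIs and, for all cells, no cluster 1. GC content and positions came from GENCODE M21 (GRCm38), matched for 98.7% of genes. The members and lists were chosen with earlier results of these data known.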

Additional observations from a re-analysis of the deposited data

Results flagged for a closer look

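The diet difference of 2 genes differed between the monocyte classes by a test of the class by diet term. For Junb the difference of log2 fold changes, Ly6Clo-like less Ly6Chi-like, was 0.50, and for Fos it was 0.39. In Ly6Clo-like monocytes Junb was 2.30-fold higher in MCD and in Ly6Chi-like monocytes 1.61-fold, and Fos fell 1.21-fold (not past the threshold) and 1.60-fold. Between endothelial cells and Ly6Chi-like monocytes the term was past the threshold for Jund at -0.80, for Junb at -0.41 and for Ier3 at -0.90. The endothelial fold changes were 1.24 for Jund and 1.16 for Junb, neither past the threshold in that class, and 3.26 for Ier3. The myeloid gene Lyz2 stood at 3043 and 3047 CPM in the NCD and 5269 and 7727 CPM in the MCD libraries of the endothelial class, and the part of monocyte RNA in that class was not tested.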

How the results depend on the processing

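In the union, Fosb, Junb, Jund, Ier3 and Dusp1 kept their direction and call in all 18 alternatives, Ier2 in 17 (lost with the GC trend removed) and Fos in 16 (lost there and on library totals). Members called lower in the union numbered 1, not 2, on library totals and 1 with the GC trend removed. All genes called in the union numbered 2771 to 3813 when 1 library was left out, against 4166, with the lowest value without NCD replicate 2. The replicate numbers did not pair the libraries (correlation of replicate differences across genes 0.015 with 2 pairs): with the replicate block 4255 genes were called in the union, and the block put members lower at 1 in all cells and 2 in Ly6Clo-like monocytes and Ier3 of migratory dendritic-like cells at -0.079.

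Leaving out 1 library gave these ranges where a sign changed. In the union Jun ranged from -0.012 to 0.39 and Egr1 from -0.21 to 1.16. Egr1 ranged from -0.32 to 0.68 in all cells, -0.17 to 1.21 in Ly6Chi-like monocytes, -0.69 to 0.95 in Ly6Clo-like monocytes and -0.999 to 0.13 in NK-like cells. Jun ranged from -0.038 to 0.30 in Ly6Clo-like monocytes, -0.020 to 0.36 in NK-like cells and -0.22 to 0.25 in endothelial cells. Junb in endothelial cells ranged from -0.064 to 0.56, Fosb from -0.84 to 0.26 in NK-like cells and -0.58 to 0.80 in cluster 9, and Ier3 from -0.43 to 2.15 in migratory dendritic-like cells. Counts of members then ranged, for those lower, from 0 to 1 in all cells and cluster 13, 1 to 2 in Ly6Clo-like monocytes, NK-like cells and cluster 9, 0 to 2 in endothelial cells and 0 to 3 in cluster 1. Those higher ranged from 1 to 3 in NK-like and migratory dendritic-like cells, 2 to 6 in cluster 9 and 0 to 1 in cluster 1.

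For counts of members in alternative settings, here and above, the share of all genes called was not counted outside the union. These counts thus do not set the members apart from other genes. In the union 4905 genes were called on library totals, against 4166 in the main fit. On library totals, members lower were 1 in Ly6Chi-like monocytes, 1 in NK-like cells and 0 in cDC2-like cells, cluster 13 and cluster 9, and members higher were 5 in endothelial cells, 5 in migratory dendritic-like cells and 1 in cluster 1. Signs changed there for Fos (0.045 in Ly6Clo-like monocytes, 0.091 in cluster 13, 0.016 in cluster 9), Fosb (0.43 in NK-like cells) and Egr1 (0.18 in NK-like cells, 0.19 in cluster 9). The class by diet terms had 2 members lower for Ly6Clo-like, 6 lower for endothelial and 2 higher for cDC2-like cells, and sign changes for Ier2 (-0.15) and Dusp1 (-0.031) in the first, Fos (-0.24), Egr1 (-0.024) and Dusp1 (-0.29) in the second and Egr1 (0.020) in the third. DESeq2 gave 1 lower in all cells, 1 higher in migratory dendritic-like cells, 1 higher in cluster 1 and 1 lower in cluster 9. Without the filter, 1 was lower in NK-like cells, 4 higher in migratory dendritic-like cells, and 2 higher and 2 lower in cluster 1. Thinned to 500 UMIs, the mean share of union cells with a UMI was 77.9% and 72.9% for Fos in NCD and MCD, 43.9% and 70.6% for Junb and 2.74% and 15.2% for Ier3. The cause of these changes was not tested, except that fewer UMIs per cell give fewer cells with a UMI. Depth limits some sums: in NCD, Ier3 of migratory dendritic-like cells rested on 9 and 1 UMIs and Egr1 on 7 and 2, and in cluster 1 Egr1 rested on 10 and 1 UMIs and Ier3 on 7 and 3. The planned class by diet term for C1q macrophages was not run.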
